A study of Drosophila melanogaster with 3 samples.

Results

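BEAF-32-GFP summits that lay inside protein-coding genes but away from every coding start numbered 496 of the 6070 in the list, or 8.17% (95% Wilson interval 7.51 to 8.89%, which covers counting error only). They were chosen by position alone. A summit is the peak position that the authors gave within a called region. A region can hold more than 1, and the 6070 summits lie in 5249 regions. Each member lay over 500 bp from every protein-coding transcript start and within the span of at least 1 protein-coding gene. Each also lay outside head-to-head gene pairs at most 1000 bp apart and their 500 bp surroundings. The other distal summits, 360 in number, lay between genes, and the remaining 5214 lay at starts or head-to-head pairs. The data came from whole Drosophila melanogaster embryos aged 0 to 14 hours, males and females pooled, of a transgenic line that stably expresses BEAF-32 with GFP fused to its C terminus. Chromatin was sonicated to 200 to 800 bp and immunoprecipitation used anti-GFP, in 3 biological replicates that formed the only group. The labels do not state the promoter of the transgene or the state of the endogenous gene, and all tissues of the embryo were mixed, so weaker binding and binding in fewer cells cannot be told apart. The list was the authors' set of regions passing their irreproducible discovery rate (IDR) threshold on the dm6 build, and coordinates are 1-based in that build.

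BEAF-32, the boundary element-associated factor, is a DNA-binding protein of insects that was found through its binding to a classical Drosophila boundary element. Boundary elements, or insulators, separate neighbouring chromatin domains and limit the contacts of enhancers with promoters. BEAF-32 recognises clusters of the string CGATA, often arranged as the palindrome TATCGATA, and is known mainly from the promoters of closely spaced housekeeping genes. Sites inside transcribed genes and away from promoters are the less typical setting described here.

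The sequences at these summits fell into several kinds, and the 10 shown here carry the strings on which the results turn. Each run is 201 bases of the plus strand, with 100 bases to either side of the summit, read from the RefSeq sequence of the dm6 assembly. Capitals mark CGATA on either strand, CATCTCTA on either strand, CGTGTCAC on either strand, the CTCF core string AGGTGGCGC on either strand, and both parts of a spaced string, TCACG followed after 4 bases of any kind by CATC, on either strand. Sequences of 82 members, those of 1 autosome arm, are not printed, so hppy, sbb and side-V, whose signals are given further on and which carry the spaced string, are not shown. Among the rest, the first set holds the 4 strongest members whose windows contain no untranslated region, chosen to show that a strong signal came with CGATA copies or, in Pp2C1, without any.
Asator (chr4:486598-486798): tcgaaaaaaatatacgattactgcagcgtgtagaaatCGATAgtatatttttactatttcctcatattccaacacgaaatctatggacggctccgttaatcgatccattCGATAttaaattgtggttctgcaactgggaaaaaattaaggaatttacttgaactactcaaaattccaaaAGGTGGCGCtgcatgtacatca
zf30C (chr2L:9759016-9759216): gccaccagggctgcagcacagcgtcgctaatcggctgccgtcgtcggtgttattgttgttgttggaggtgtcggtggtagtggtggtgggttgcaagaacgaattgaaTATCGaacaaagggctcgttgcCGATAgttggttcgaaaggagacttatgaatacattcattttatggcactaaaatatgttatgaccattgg
Pp2C1 (chrX:4684646-4684846): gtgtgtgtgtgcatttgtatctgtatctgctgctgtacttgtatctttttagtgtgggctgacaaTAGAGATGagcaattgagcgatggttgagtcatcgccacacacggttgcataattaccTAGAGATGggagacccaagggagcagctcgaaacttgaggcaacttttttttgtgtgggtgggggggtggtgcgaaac
Stt3A (chrX:21053248-21053448): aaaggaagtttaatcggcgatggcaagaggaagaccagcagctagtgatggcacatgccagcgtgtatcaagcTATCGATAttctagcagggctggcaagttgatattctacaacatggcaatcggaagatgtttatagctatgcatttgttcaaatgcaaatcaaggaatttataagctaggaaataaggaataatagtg

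The next set holds the 4 strongest members that carry the spaced string under the same choice of arms and windows, all in introns, and shows that its CATC part can continue into CATCTCTA.
CG12535 (chrX:3396938-3397138): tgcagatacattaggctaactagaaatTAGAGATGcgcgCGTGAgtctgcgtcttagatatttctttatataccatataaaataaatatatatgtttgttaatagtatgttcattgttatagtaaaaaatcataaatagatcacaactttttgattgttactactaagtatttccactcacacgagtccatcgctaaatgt
Ptp61F and ru (chr3L:1376071-1376271): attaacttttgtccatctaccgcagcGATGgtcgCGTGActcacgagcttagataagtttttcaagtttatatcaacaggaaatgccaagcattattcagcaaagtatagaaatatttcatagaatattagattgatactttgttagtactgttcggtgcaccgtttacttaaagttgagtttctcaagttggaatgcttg
CG17672 (chr3L:13032759-13032959): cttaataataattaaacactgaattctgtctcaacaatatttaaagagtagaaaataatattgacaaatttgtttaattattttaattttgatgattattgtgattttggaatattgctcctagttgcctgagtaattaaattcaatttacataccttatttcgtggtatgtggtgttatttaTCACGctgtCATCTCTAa
wts (chr3R:30795145-30795345): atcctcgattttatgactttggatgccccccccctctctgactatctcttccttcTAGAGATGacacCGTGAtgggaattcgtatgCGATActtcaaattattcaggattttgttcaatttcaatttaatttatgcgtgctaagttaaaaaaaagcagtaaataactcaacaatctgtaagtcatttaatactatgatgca

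The last pair holds a member with the CTCF core string, in nrv2, which encodes a sodium pump subunit, and the member of bif with 5 copies of CGATA, 4 of them from a pair of TATCGATA palindromes, each of which counts on both strands.
nrv2 (chr2L:6797490-6797690): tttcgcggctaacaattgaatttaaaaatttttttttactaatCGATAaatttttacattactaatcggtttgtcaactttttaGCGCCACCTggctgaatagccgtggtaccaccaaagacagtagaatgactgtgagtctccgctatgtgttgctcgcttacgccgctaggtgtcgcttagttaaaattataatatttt
bif (chrX:11681544-11681744): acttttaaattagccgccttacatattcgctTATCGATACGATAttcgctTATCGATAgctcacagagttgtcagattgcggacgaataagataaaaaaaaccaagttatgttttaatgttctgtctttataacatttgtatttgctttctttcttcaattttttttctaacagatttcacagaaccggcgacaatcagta

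The class was small in every library. When the same rule was applied to the strongest 6070 summits of each replicate's own list, members numbered 420 in replicate 1, 302 in replicate 2 and 400 in replicate 3, which is 6.16 ± 1.04% of the summits (SD, n = 3). Replicate 2 gave the fewest members and also the fewest distal summits between genes (262, against 345 and 305 in replicates 1 and 3). The precision of all such values is limited by there being 3 libraries, and the read depth behind them is unknown, because no source used here gives read totals.

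Within the IDR list, gene bodies carried distal summits less densely than the DNA between genes. Members were found at 6.33 per Mb of eligible gene body (95% Poisson interval 5.78 to 6.91, over 78.4 Mb), against 8.97 per Mb between genes (8.07 to 9.94, over 40.1 Mb), where eligible bases are those that satisfy the same distance rule. In the replicate lists the density averaged 4.77 ± 0.81 per Mb inside genes and 7.57 ± 1.03 per Mb between genes (SD, n = 3). All 3 densities inside genes were below all 3 between genes, and the two-sided exact permutation test gave p = 0.10, the smallest value that 3 against 3 allows. Since both densities come from the same libraries, they were also compared within each list: the difference averaged -2.80 ± 0.39 per Mb and was negative in 3 of 3, and the paired exact sign-flip test gave p = 0.25, the smallest that 3 pairs allow. The ratio of the density inside genes to that between genes was 0.705 in the IDR list, 0.506 among its summits above the median signal and, reversed, 2.14 over the whole relaxed pooled list. By its label, that relaxed list holds background as well as peaks.

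The class grew steeply down the relaxed list called on the pooled replicates, which holds 29996 summits on the 6 arms. Members made up 2.73% of the strongest 3000 summits, 13.1% of the next 3000, 34.7% of the third group, where summits between genes were 15.2%, and 56.7% of the fourth. From the fifth group on the share lay between 67.1 and 72.3%. Over the whole relaxed list it was 52.9%, or 15854 summits, while eligible gene bodies make up 58.6% of the bases of the arms. The share of summits at starts went the other way, with 94.5% in the strongest group and 13.1% in the weakest. The IDR list ends within the third group, so the members described here are the strong end of the distal summits in genes on the relaxed list. Most of those did not pass the authors' threshold. As the relaxed list holds background as well as peaks, how many of the rest are binding sites was not tested.

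**Figure D1:**
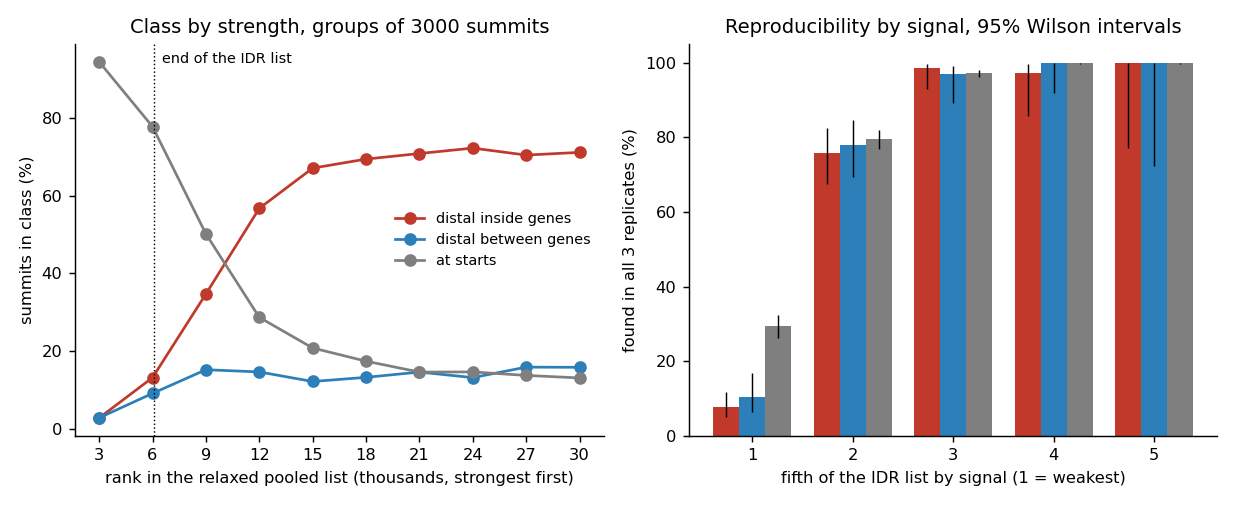
Left, the share of summits in each class (y axis, percent) in successive groups of 3000 summits of the relaxed pooled list, strongest first (x axis, rank of the last summit of each group); the red line of members stands at 2.73% in the first group and between 67.1 and 72.3% from the fifth on, while the grey line of starts runs the other way. Right, the share of IDR summits found in all 3 replicates (y axis, percent) in each of 5 equal signal classes of the list (x axis), with bars for members, summits between genes and summits at starts and 95% Wilson intervals; in the weakest signal class starts, at 29.3%, stand above members and summits between genes, whose intervals overlap, and in the other classes the bars are close.

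Members were weak by the standard of the list. Their signal, the authors' own strength value of each peak on a scale that is not stated, had a median of 232.5 and ran from 139.0 to 6646, against a median of 297.5 between genes and 710 at starts. Only 85 of the 496 (17.1%) lay above the list's median signal of 578.8, against 86 of 360 between genes (23.9%, odds ratio 0.66, Fisher's exact test adjusted p = 0.0186) and 2864 of 5214 at starts (54.9%, odds ratio 0.170, adjusted p = 1.28e-61). In the replicate lists these shares were 20.5 ± 2.6% for members, 26.2 ± 3.1% between genes and 53.4 ± 0.9% at starts (SD, n = 3 lists). Members were lower than summits between genes within each of the 3 lists, with a mean difference of -5.65 ± 0.77 percentage points (SD, n = 3; paired exact sign-flip p = 0.25, the smallest possible), although the ranges over the lists overlapped (exact permutation p = 0.20). With a distance limit of 1000 bp the odds ratio against summits between genes was 0.718 and no longer passed the threshold (Fisher's exact test adjusted p = 0.125). Against starts the ranges over the lists did not overlap (exact permutation p = 0.10, the smallest possible). Within the lists that difference averaged -32.9 ± 3.47 percentage points (SD, n = 3; paired exact sign-flip p = 0.25, the smallest possible). Among the strongest 607 summits 2 were members, and none was among the strongest 100.

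Members were also found again less often from library to library. A summit counted as found when it lay inside one of the 6070 strongest regions of a replicate's list. By that count 236 members (47.6%) were found in all 3 replicates, against 79.8% of all IDR summits. The share was 59.4% between genes (214 of 360, odds ratio 0.619, Fisher's exact test adjusted p = 0.00101) and 84.3% at starts (4395 of 5214, odds ratio 0.169, adjusted p = 1.11e-69). Counted in the strongest 3000 regions of each list, the difference from summits between genes no longer passed the threshold (odds ratio 0.746, Fisher's exact test adjusted p = 0.155). Replicate 1 held 77.6% of the members, replicate 2 held 56.5% and replicate 3 held 75.8%, and 46 members (9.27%) were in none of the 3 sets of strongest regions. The list was then cut into 5 classes of equal size by signal. In the weakest of them the shares found in all 3 were 7.69% of members, 10.4% between genes and 29.3% at starts. In the next they were 75.8% of members, 78.0% between genes and 79.6% at starts, and in the middle one 98.7, 96.8 and 97.3% in the same order. Members numbered 247, 124, 76, 36 and 13 in the 5 signal classes, weakest first. With odds ratios pooled within the signal classes by the Mantel-Haenszel method, members were still found less often than starts (0.393, 95% interval 0.294 to 0.525), while against summits between genes the interval included equality (0.824, 0.523 to 1.30). A weak summit can count as found through a stronger one in its region, and 27.8% of starts shared a region, against 15.1% of members. With 1 summit per region the odds ratio against starts was 0.160 without signal classes. Within them it was not computed that way. With the whole relaxed lists in place of the strongest regions, 476 members (96.0%) were found in all 3, against 93.6% between genes.

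The strongest member lay in Asator, which encodes a tau-tubulin kinase family protein, on chromosome 4 at position 486698 (FBgn0039908), in the first intron and 665 bp from the nearest coding start. Its signal was 6646 and it ranked 435, 322 and 547 in replicates 1, 2 and 3. It was followed by zf30C, a zinc-finger gene (signal 5852; ranks 535, 679 and 534), and by Pp2C1, a protein phosphatase gene (5404; 741, 541 and 641). The fourth, in the 3′ UTR of exu, whose product localises bicoid RNA in the oocyte, had a signal of 5113 and ranks 552, 1057 and 831. The fifth lay in the 3′ UTR of CG16989 (4818), where the ranks differed most among these 5, at 1229, 328 and 852. All of the 25 strongest members were found in every replicate, and their signals ran from 1889 to 6646. Being found was usual at that strength. In the strongest signal class of the list it held for 100% of members, of summits between genes and of starts. In the next class it held for 97.2, 100 and 99.9% in the same order.

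The hosts of the other 20 span many functions. They include Stt3A, the catalytic subunit of oligosaccharyltransferase (4524), Tudor-SN, a staphylococcal-nuclease protein of RNA biology (4257), Ncoa6, a nuclear receptor coactivator (3884), and Pgd, an enzyme of the pentose phosphate pathway (3847). Next by signal came the RNA-binding protein gene Larp4B (3823), the histone demethylase gene Kdm2 (3751), and the position shared by Atg1, the kinase that starts autophagy, and CG42709 (3709). The member shared by the tyrosine phosphatase gene Ptp61F and CG9166 (3649) and that in dos, an adaptor of receptor tyrosine kinases (3173), followed. Then came IntS6, a subunit of the Integrator complex, bif, woc, not, a deubiquitinase of the SAGA complex, cg, Mapmodulin, BRWD3, tara, kirre, Gnpat and CG7102, with signals from 3114 down to 1889. Of the 25, 21 lay in introns, 3 in 3′ UTRs and 1 in a 5′ UTR.

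The rule's limit of 500 bp cut through a continuous range of distances. Just inside it were summits in Diap1, an inhibitor of apoptosis, at 505 bp (signal 172), in grk at 505 bp (190) and in sick at 507 bp (147). Just outside were those of tara at 500 bp (142), dachs at 497 bp (707) and ph-p, a Polycomb group gene, at 492 bp (449).

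Most members lay in introns, with first introns and the 5′ parts of genes standing out. Introns held 397 of the 496 (80.0%), while 66.5% of the eligible gene-body bases are intronic. Coding exons held 27 (5.44%, against 24.1% of the bases), 3′ UTRs 46 (9.27%, against 7.72%), 5′ UTRs 19 (3.83%, against 1.05%) and exons of non-coding genes 7 (1.41%, against 0.693%). The replicate lists gave 77.7 ± 1.4% in introns and 7.38 ± 1.5% in coding exons (SD, n = 3). First introns of coding transcripts held 263 members (53.0%), against 28.4% of the bases, and 52.3 ± 2.3% in the replicate lists. With the longest host gene divided into 3 equal stretches, 46.6% of members lay in the 5′ stretch, 28.6% in the middle one and 24.8% in the 3′ one, whose shares of eligible bases are 29.0, 35.1 and 35.9%.

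**Figure D2:**
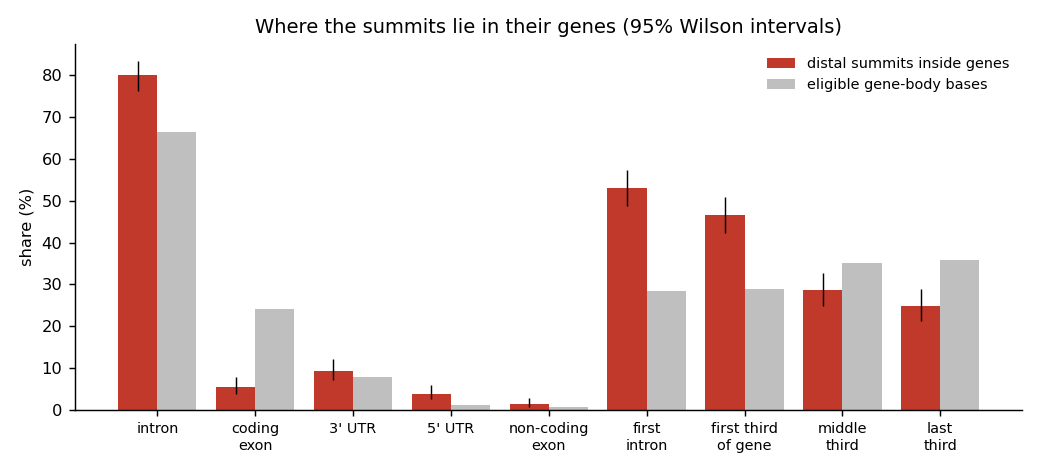
Share of the 496 members (red, with 95% Wilson intervals) and of eligible gene-body bases (grey) in each kind of gene sequence, in first introns and in 3 equal stretches of the longest host gene (y axis, percent). Members exceed the bases in introns, first introns and the 5′ stretch of genes, and fall short of them in coding exons, 5.44% against 24.1%.

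Density fell with distance from the nearest coding start. The median distance was 1980 bp, with a range of 505 to 119471 bp. Per Mb of eligible gene body, members numbered 12.6 at 500 to 1000 bp, 9.67 at 1000 to 2000 bp, 6.11 at 2000 to 5000 bp, 5.04 at 5000 to 10000 bp and 2.54 beyond that. In the replicate lists the same classes held 9.77 ± 2.21, 7.82 ± 1.26, 4.36 ± 0.63, 3.91 ± 0.75 and 1.63 ± 0.19 per Mb (SD, n = 3), and each replicate on its own gave a lower density in every class than in the class before it. Signal did not follow this order, with medians of 260, 255, 211, 270 and 217 from the nearest class to the farthest. Near starts the first intron was the usual place, holding 64.2 and 65.1% of members in the first and second classes against 29.3 and 29.8% of the bases there, while beyond 10000 bp it held 30.9% against 21.0%.

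**Figure D3:**
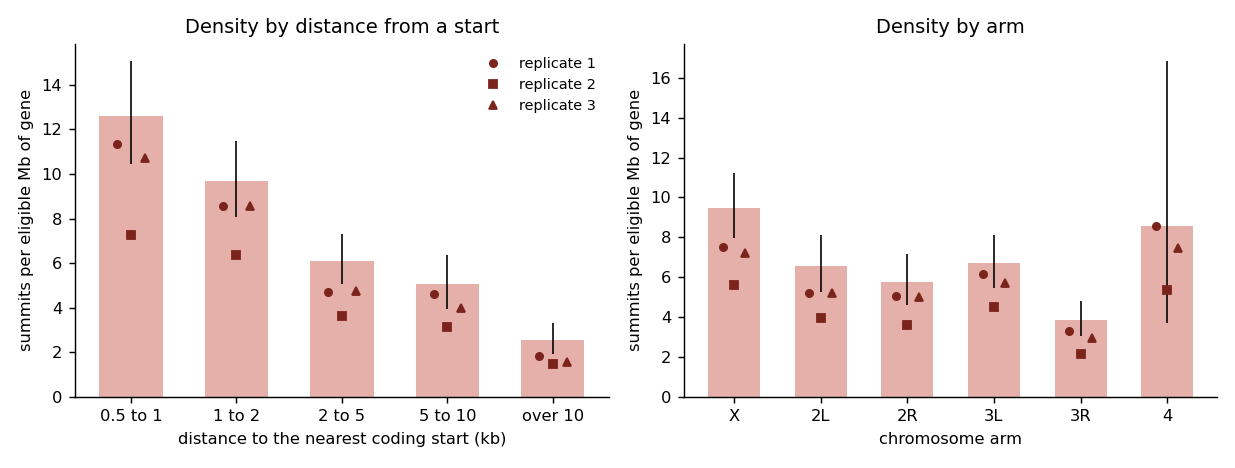
Members per Mb of eligible gene body (y axis) by distance to the nearest coding start (left) and by chromosome arm (right), with bars for the IDR list, 95% Poisson intervals and a symbol for each replicate list. Density is 12.6 per Mb in the nearest distance class and 2.54 in the farthest, and among the large arms X is highest at 9.49 per Mb and 3R lowest at 3.84.

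The X chromosome carried members more densely than the large autosome arms. It held 139, or 9.49 per Mb of eligible gene body (Poisson interval 7.98 to 11.2), against 349 on 2L, 2R, 3L and 3R, or 5.56 per Mb (4.99 to 6.17). In the replicate lists X had 6.78 ± 1.03 per Mb and the large autosome arms 4.27 ± 0.74 (SD, n = 3), with no overlap between the sets of 3 (exact permutation p = 0.10, the smallest possible). Compared within each list, the difference averaged 2.52 ± 0.29 per Mb and was positive in 3 of 3 (paired exact sign-flip p = 0.25, the smallest possible). Members were 11.6% of the 1194 summits on X and 7.29% of the 4788 on the large autosome arms. Among these autosome arms, 3R stood lowest at 3.84 per Mb and 3L highest at 6.70. The embryos were of pooled sex, so the dose of X in the material was not fixed.

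Chromosome 4, which is small and largely heterochromatic, held 8 members, or 8.56 per Mb with a wide interval of 3.69 to 16.9. After Asator came ATPsynbeta, a subunit of mitochondrial ATP synthase (signal 818), PlexB, a receptor for semaphorins in axon guidance (308), and the position shared by CG32017 and the kinesin gene Kif3C (219). A pair of adjacent summits lay where sv and Cals overlap (200 and 167), and the last ones lay in CG33521 (195) and JYalpha (175). Of the 8, 6 had CGATA within 100 bp, where the share is 49.6% over all members and 58.3% over all IDR summits. The count is small and was not tested, and the PlexB and Kif3C positions are counted again among transposons.

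Transposon sequence held few members, most of them in copies of 1 element. Only 6 members (1.21%) fell in annotated transposons, which make up 4.62% of eligible gene-body bases. All 6 had CGATA within 100 bp, where the share over all members is 49.6%. INE-1, an abundant non-autonomous DNA element of the Drosophila genome, accounted for 5 of them, and each of these had 3 or 4 CGATA copies, including a TATCGATA palindrome, which 10.9% of all members had. As copies of 1 element the 5 are not independent cases, and how often INE-1 copies without a summit hold these strings was not counted. The INE-1 members lay in introns of nAChRalpha4 (signal 1478), PlexB (308), CG32017 with Kif3C (219), Nipped-B (217) and CG3635 (139). The nAChRalpha4 summit ranked 1696, 2984 and 2021 in the 3 replicates, while the Nipped-B summit ranked 5479 in replicate 1, 27769 in replicate 3 and lay in none of the regions of replicate 2. The sixth, in an F element within AGO3, had 1 copy (signal 182). These positions were singled out after their values were seen, and how the authors placed reads from repeated elements is not stated in the sources at hand.

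CGATA marked these summits, though less often than summits at starts. It stood within 100 bp of 246 members (49.6%), against 26.0% of equally wide windows centred 1000 bp to the left and 21.8% of those to the right (exact McNemar test, larger p of the pair 5.23e-14). The share was 58.3% of all IDR summits and 21.3% of all windows of that width in the genome. Summits between genes had it at 51.4% (odds ratio 0.93, interval from 0.70 to 1.23, adjusted p = 0.628 by Fisher's exact test), and those at starts at 59.6% (odds ratio 0.667, adjusted p = 4.13e-05). The replicate lists gave 49.0 ± 3.0% for members, 53.9 ± 3.2% between genes and 58.2 ± 0.8% at starts (SD, n = 3). Within each list members were below summits between genes, with a mean difference of -4.92 ± 1.37 percentage points in 3 of 3 (paired exact sign-flip p = 0.25, the smallest possible). Copies were concentrated at the summit, with 43.4% within 25 bp and 72.2% within 50 bp among the 475 copies in the windows.

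The string count followed strength, and at like strength the order of the classes changed. In the same 5 signal classes, weakest first, CGATA stood at 43.3, 49.2, 55.3, 77.8 and 61.5% of members, and at 29.8, 35.2, 48.5, 78.4 and 92.7% of summits at starts. Members thus had the higher share in the weakest 3 classes, and summits at starts in the others. With these classes as strata, the pooled odds ratio of members against starts was 1.54 (Mantel-Haenszel, 95% interval 1.26 to 1.88), the reverse of the direction without them. Against summits between genes the pooled odds ratio was 1.07 (0.805 to 1.42). Summits between genes had CGATA at 30.6, 50.5, 66.7, 88.6 and 80.0% in the 5 classes, weakest first. Members were thus above them in the weakest class and below them in the others. Among members alone, the weakest 124 by signal had CGATA at 42.7% and the strongest 124 at 62.1%.

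The palindrome TATCGATA was at 54 members (10.9%), against 1.21 and 0.806% in the flanks (exact McNemar test adjusted p = 3.4e-10), 12.8% between genes, 17.8% at starts (Fisher's exact test adjusted p = 0.00011), 16.9% of all IDR summits and 0.563% of genome windows. The string GGTCACACT, the core of the promoter element bound by M1BP, was rare, at 2 members (0.403%), against 9.49% of summits at starts (Fisher's exact test adjusted p = 6.14e-17) and 1.39% between genes (adjusted p = 0.322). The flanks of members held it at 0.403 and 0.605%, and windows of eligible gene body at 0.0838%. As the rule left out summits near coding starts, the difference from starts in a promoter string is no separate result about members. GGTCACACT stood at 8.27% of all IDR summits and 0.201% of genome windows. The CTCF core string AGGTGGCGC was at 10 members (2.02%), at none of the flanking windows (exact McNemar test adjusted p = 0.00456), at 2.50% of summits between genes and at 0.422% of those at starts (odds ratio 4.86, adjusted p = 0.000349). In the replicate lists it stood at 2.20 ± 0.58% of members and 0.420 ± 0.045% of starts, while 0.675% of all IDR summits and 0.137% of genome windows held it. GAGAG, the string of GAGA factor, was at 23.2% of members and 15.4% of starts (Fisher's exact test adjusted p = 4.8e-05), but flanks of members had it at 27.6 and 23.2% and genome windows at 21.5%; 16.1% of all IDR summits held it. The Zelda string CAGGTAG and the Su(Hw) string TGCATACTT passed no test, at 1.61 and 0.605% of members, 0.807 and 0.412% of all IDR summits and 1.09 and 0.405% of genome windows.

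A count of every string of 8 bases, made after seeing the data, found further strings at these summits. Of 32896 tested, 7 were more frequent at members than in both flanks (0.0213%; exact McNemar tests, Benjamini-Hochberg adjusted p under 0.05) and none was less frequent. Among the 7, 4 hold CGATA or its complement on the other strand, led by TATCGATA. The others do not. CATCTCTA was within 100 bp of 39 members (7.86%), against 1 window in each flank (exact McNemar test adjusted p = 1.6e-06). CGTGTCAC was at 32 members (6.45%), against 0 and 4 flanking windows (exact McNemar test adjusted p = 0.0042), and CGTGACAC also at 32, against 3 and 2 (adjusted p = 0.00275). Genome windows held CATCTCTA at 0.409% and CGTGTCAC at 0.235%. In the replicate lists CATCTCTA was at 7.62, 9.93 and 7.50% of members and CGTGTCAC at 4.52, 7.62 and 6.75%. CGATA was absent within 100 bp at 24 of the 39 members with CATCTCTA and at 22 of the 32 with CGTGTCAC. Over all members CGATA was absent at 250 (50.4%). The counts for both strings are small, and their difference from that share was not tested.

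Set against summits at starts, members differed in a number of these strings, and set against summits between genes no string passed the threshold. Of the same 32896 strings, 49 were more frequent at members than at starts (0.149%; Fisher's exact tests, adjusted p under 0.05) and 34 were less frequent. CGTGTCAC stood at 6.45% of members and 0.652% of starts (34 of 5214; odds ratio 10.5, 95% interval from 6.21 to 17.7, adjusted p = 3.0e-13 by Fisher's exact test). CATCTCTA stood at 7.86% of members and 4.16% of starts (Fisher's exact test adjusted p = 0.109). GGTCACAC, part of the M1BP string, had the strongest opposite difference, at 0.605% of members and 12.1% of starts (Fisher's exact test adjusted p = 7.87e-18). The limit given above for that promoter string applies here too. Against summits between genes, 0 strings were called in either direction by Fisher's exact test, and 613 had an unadjusted p under 0.05. Of the 496 members, 199 (40.1%) held none of CGATA, CATCTCTA, CGTGTCAC and AGGTGGCGC. Those 199 had a median signal of 205 and 38.7% of them were found in all 3 replicates.

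Putting the strings together gave the spaced string shown above, in capitals, in CG12535, Ptp61F, CG17672 and wts. It was chosen after the strings were seen, so its shares are a description with no test. It was within 100 bp of 40 members (8.06%, Wilson interval 5.98 to 10.8%), against 0 windows in the left flank and 1 in the right. Summits between genes had it at 6.94% (25 of 360), those at starts at 0.556% (29 of 5214) and genome windows at 0.132%. The replicate lists gave 7.14, 10.9 and 6.75% of members, a mean of 8.27 ± 2.31% (SD, n = 3). Of the 40, 14 also held CATCTCTA, 12 held CGTGTCAC and 17 held CGATA. Eligible gene bodies contain 533 copies, of which 44 (8.26%) had their midpoint within 100 bp of an IDR summit and 96 (18.0%) within 100 bp of a summit of the relaxed pooled list.

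**Figure D4:**
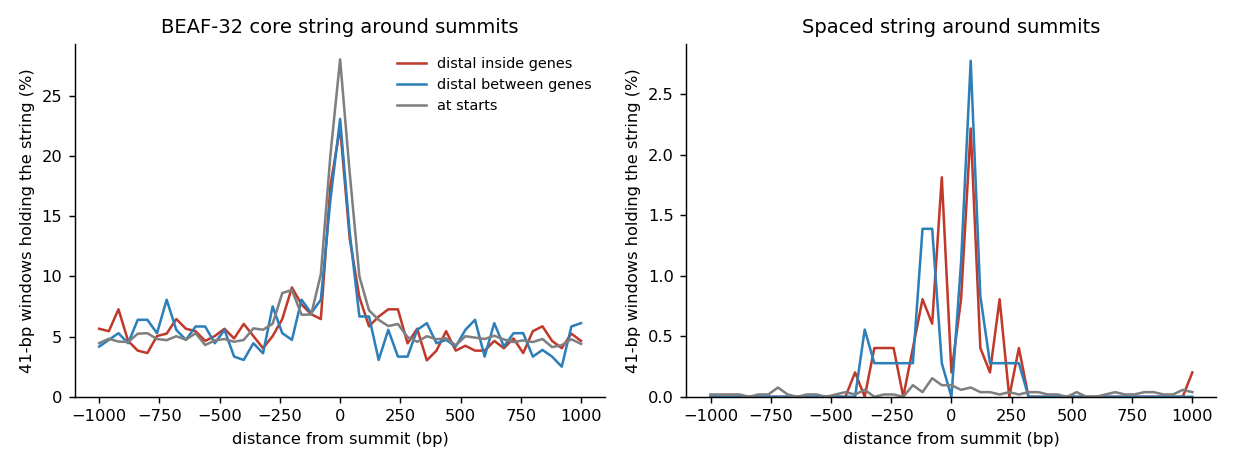
Share of 41-bp windows holding CGATA (left) and the spaced string (right) on either strand (y axis, percent) by distance from the summit (x axis, bp), for members, summits between genes and summits at starts. CGATA peaks at the summit in all classes, and the spaced string is seen near the summits of both distal classes and is close to 0 elsewhere and at starts.

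The spaced string marked the members farthest from starts. It was near 1 of 120 members at 500 to 1000 bp from a coding start (0.833%) and 0 of 129 at 1000 to 2000 bp, where a count of 0 allows a share of up to 2.89% (Wilson). It was near 8.26% of members at 2000 to 5000 bp, 14.1% at 5000 to 10000 bp and 34.5% (19 of 55) beyond 10000 bp. Beyond 2000 bp its share was 15.8% of members in the IDR list and 13.6, 19.6 and 14.1% in the replicate lists, against 0.402% nearer to starts in the IDR list and 1.35, 2.60 and 0.463% in the replicate lists. Beyond 10000 bp the replicate lists had it at 32.5, 46.9 and 35.3% of members. Windows of eligible gene body held it at 0.106 to 0.143% in the 5 distance classes, so the string itself was not more common far from starts. Summits between genes had it at 2.74% in the nearest class and 16.9% (10 of 59) in the farthest. CGATA changed little over the same classes of members, standing at 44.2, 51.9, 51.2, 49.3 and 52.7%.

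All 40 members with the spaced string lay in introns, against 78.3% of the other members. Their median distance to a coding start was 9393 bp, against 1723 bp for the others, and their hosts had a median length of 61000 bp, against 16617 bp. Their median signal was 248, against 232 for the others, and 22 of the 40 (55.0%) were found in all 3 replicates, against 46.9% of the others. The strongest lay in hppy, a kinase gene (signal 1119), followed by CG12535 (947), sbb, a transcriptional corepressor (880), Ptp61F with ru, which encodes a rhomboid protease (867), CG17672 (838), side-V (830), wts, the Warts kinase of the Hippo pathway (758), bun (626), Hipk, a homeodomain-interacting kinase (608), and fend (528). These and the next names were chosen after their values were seen. Farther down were Eip75B, an ecdysone-induced nuclear receptor (513), Dys, dystrophin (370), cpo (228), tup (199), and both bab1 (176) and bab2 (175), the transcription factor genes of bric-a-brac. There were 3 in kirre and 2 each in klar, hppy, sbb and CARPB.

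Neighbouring summits, non-coding starts and transcript ends were counted next. Another summit lay in the same called region for 15.1% of members, against 15.6% between genes and 27.8% at starts, and 18 members shared their region with a summit at a start. Another summit lay within 1000 bp of 29.0% of members, against 25.6% between genes and 37.0% at starts. A start of a non-coding gene lay within 500 bp of 25 members (5.04%), against 1.43% of eligible bases. A coding transcript end was as close to 47 members (9.48%), against 10.5% of the bases. The median GC content of the 201-base windows was 38.8% for members, 36.8% between genes and 37.3% at starts.

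The members lay in 400 host genes, most of which held a single one. There was 1 member in 310 genes, 2 in 67 and 3 or more in 23, and 30 members lay where at least 2 coding genes overlap. These counts are of summits, which lay as close as 199 bp to the nearest other summit, so they are not counts of separate sites. Hosts were long, with a median of 16979 bp against 2096 bp for other coding genes. They were also bound at their own starts more often, where a gene counts as bound if any of its starts has an IDR summit at most 500 bp away. This held for 252 of the 400 (63.0%), against 5840 of 13545 other coding genes (43.1%) and 43.7% of all coding genes (odds ratio 2.25, interval from 1.82 to 2.78, p = 3.75e-15 by Fisher's exact test). The replicate lists gave 59.8 ± 1.1% of hosts and 41.1 ± 1.7% of other genes (SD, n = 3), with no overlap (exact permutation p = 0.10, the smallest possible). Compared within each list, the difference averaged 18.7 ± 0.64 percentage points and was positive in 3 of 3 (paired exact sign-flip p = 0.25, the smallest possible). Within classes of gene length the pooled odds ratio was 1.89 (1.53 to 2.34), and in the longest class, with 314 of the hosts, 60.8% of hosts and 45.3% of other genes were bound. Among genes outside head-to-head pairs the shares were 50.4% of hosts and 24.1% of other genes (odds ratio 3.19).

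The summit at the start was usually the stronger. For the 327 members with a bound start in a host gene, the median signal was 240 at the member and 1359 at the start, and the member was the stronger in 58 (17.7%). Members in hosts with no bound start had a median signal of 228, and CGATA was near 49.8% of members in bound hosts and 49.1% of those in unbound hosts.

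The 23 genes with 3 or more members were between 8519 and 394149 bp long. The gene with the most was sbb, with 6 over its 79.1 kb, of signal 924 down to 163, against 340 at its start. Its members of signal 924 and 880 lay 204 bp apart. Mi-2, the ATPase of the NuRD remodelling complex, and Su(Tpl), an elongation factor of the ELL family that overlaps it, shared 5 (555 to 152). Tlk, the Tousled-like kinase, held 5 (402 to 154). The chromatin remodeller gene kis held 4 (591 to 262), all with CGATA and all found in 3 replicates, below a start summit of 10600. They lay in close pairs, 227 and 201 bp apart, so they are not separate sites. The nuclear positioning gene klar held 4 (452 to 149, start 12907), as did simj, another NuRD subunit (381 to 158), and upSET (255 to 167), none of whose members was found in all 3 replicates.

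The adhesion gene kirre, which acts in myoblast fusion and spans 394 kb, held 4 members with signals between 161 and 2004 with no summit at its own starts. Snap25, a protein of synaptic vesicle fusion, had summits of signal 1236 and 261 that lay 210 bp apart, and another of 265. It was also unbound at its start, with 3 members in all. The same held for nAChRalpha4, a nicotinic acetylcholine receptor subunit (1478 to 202), CG12535 (947 to 151), tna (325 to 146) and shn, a zinc-finger factor of Dpp signalling (252 to 141). Bound at their starts and with 3 members each were for, ctrip, brat, wde, osa, rdx, Raf, Mef2 and sick. Their strongest members ran from 1376 in for, a cGMP-dependent kinase, and 1331 in ctrip, a ubiquitin ligase, to 199 in sick. Those of for, ctrip and wde lay 208, 204 and 200 bp from the next summit. Mef2, the muscle transcription factor, had 3 weak ones (207 to 177) beside a start summit of 5686.

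**Figure D5:**
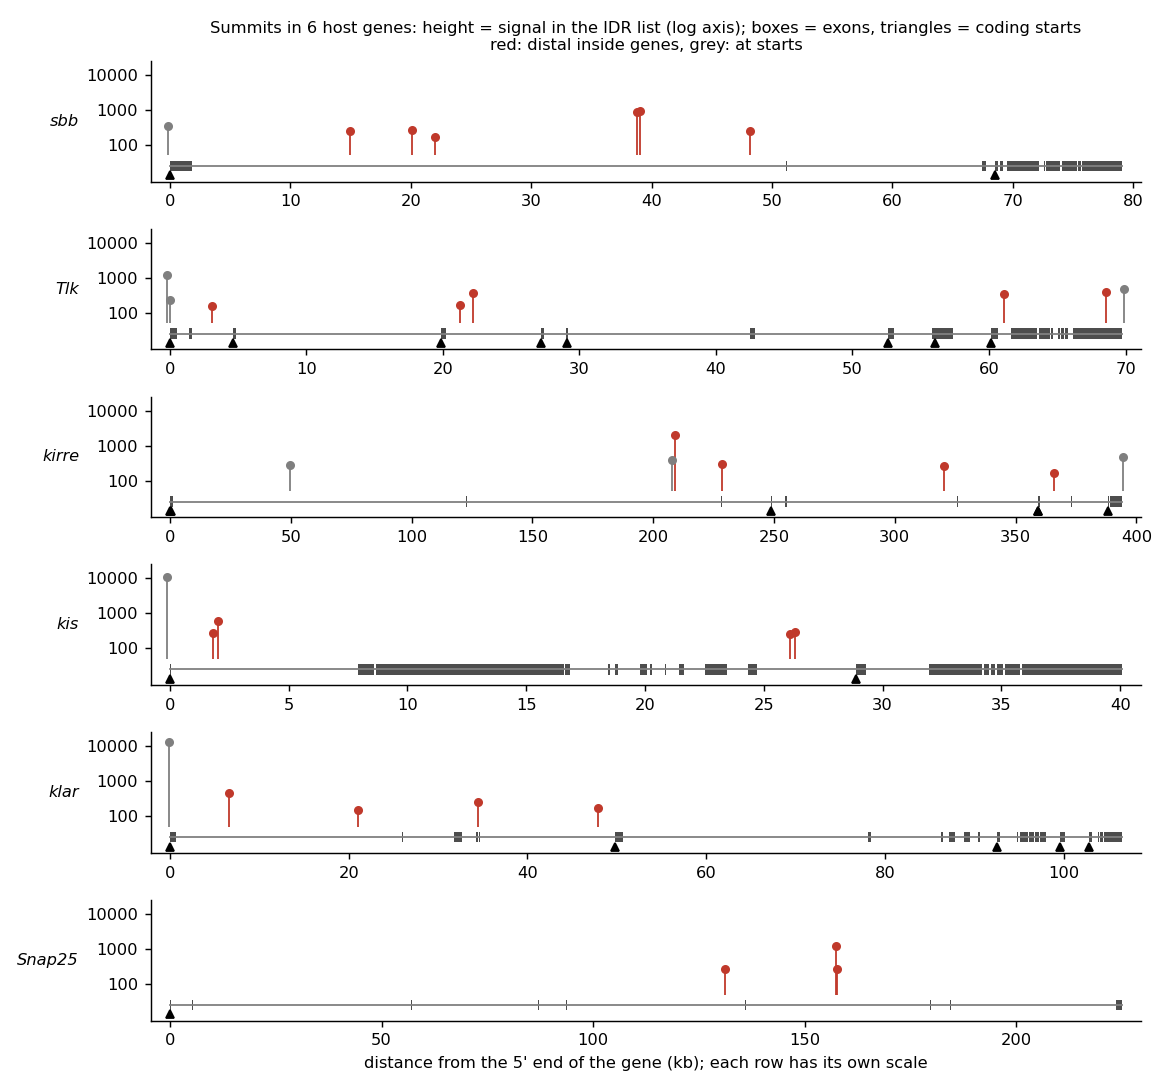
Summits in sbb, Tlk, kirre, kis, klar and Snap25 by distance from the 5′ end of the gene (x axis, kb, a scale for each gene), with height as signal on a log axis, red for members, grey for summits at starts, boxes for exons and triangles for coding starts. The red members of sbb and Snap25 lie in long introns, and the start summits of kis and klar, at 10600 and 12907, stand above all members of those genes.

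Lists of genes active in development were counted for hosts of members, to be read beside 2.87% of all coding genes and 11.3% of the longest 2789 of them. Shares bound at a start are to be read beside 43.7 and 47.1% of the same sets. Hox and homeobox genes hosted members in 3 of 38 (7.89%), namely lab (signal 594), pb (321) and otp (311), and only 13.2% of the list was bound at a start. Of 44 other transcription factors of patterning, 2 were hosts (4.55%), ct (337) and zfh1 (174), with 11.4% bound at a start. Of the members in these lists, 1 of 3 and 2 of 2 had CGATA within 100 bp, where the share over all members is 49.6%. Ecdysone and nuclear receptor genes hosted members in 5 of 22 (22.7%), with 9 in all, in EcR, the ecdysone receptor (578), Eip75B (513), Hr3 (285), Eip74EF (270) and Hr4. Of those 9, 1 had CGATA, and 40.9% of the list was bound at a start.

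Signalling genes hosted members in 15 of 60 (25%), with 19 in all, and 63.3% of the list was bound at a start. The strongest were in sty, the Sprouty antagonist of receptor tyrosine kinase signalling (1146), numb, an inhibitor of Notch (815), msn (815) and wts (758). Of 45 axon guidance and adhesion genes 7 were hosts (15.6%), led by kirre (2004), PlexB (308), rst (292) and Nrg, neuroglian (231). Of 37 ion channel and synapse genes 4 were hosts (10.8%), which were nAChRalpha4 (1478), norpA, the phospholipase of phototransduction (255), KCNQ (175) and brp (163). Muscle and cytoskeleton genes were hosts in 6 of 29 (20.7%), led by chic, profilin (550), Dys (370), Zasp52 (292) and wupA, troponin I (163). Of 41 boundary and chromatin protein genes, 35 (85.4%) were bound at a start, and 6 (14.6%) were hosts, led by mod(mdg4) (671), Trl, which encodes GAGA factor (648), osa (285) and trx (233). All 6 of these hosts were bound at their own starts. CGATA was within 100 bp of 11 of the 19 members in signalling genes, 7 of 10 in axon guidance and adhesion genes, 4 of 6 in ion channel and synapse genes, 3 of 6 in muscle and cytoskeleton genes and 1 of 8 in boundary and chromatin genes. These counts are small and were not tested. Gene length differs between these lists, with medians from 4565 bp in the boundary and chromatin list to 42783 bp in the ion channel list, and its part in the counts was not tested.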

How the data were processed

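ChIP-seq peak lists of 3 biological replicates were used on dm6: a relaxed list per replicate, a relaxed list from the pooled alignments and the IDR list, each made by the authors with a control, per the file headers. The relaxed pooled list is labelled as peaks and background, used as input for IDR. Aligner, caller, versions and thresholds: not given in the sources used here. Peak signal values were deposited by the authors with no stated scale and was compared only within a list. The deposited −log10 q-value was 4.24 at every IDR summit and was not used. Deposited summit offsets were turned into 1-based positions. The 6070 IDR summits, in 5249 regions, were the strongest 6070 of the pooled list. Control coverage, signal tracks and dm3 lists were not analysed here.

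Genes came from Ensembl release 115 (BDGP6.54, 13945 coding genes). The spread between libraries was taken by applying the rule to the strongest 6070 summits of each replicate list. Shares were compared with two-sided Fisher's exact tests over summits, strings with exact McNemar tests against flanks, and replicate values with two-sided exact permutation tests. Summits are not replicates, so Fisher p-values cover counting error within a list, and p-values were adjusted by the Benjamini-Hochberg method within each family at 0.05. Strings were counted on both strands within 100 bp. The members, gene lists and tests were chosen with earlier results of these data known. Named genes were the hosts of the 25 strongest members, genes with 3 or more members, members of chromosome 4, the 3 nearest to each side of the 500 bp limit, and up to 4 hosts per list; others are named where said. The string scan, the strings from it and the spaced string were added after seeing the data. Alternatives changed the distance limit, the kinds of starts, the list, the replicates, the window and the strata. Computations were tested on simulated data and ran in Python 3.11.15 with scipy 1.17.1 and statsmodels 0.14.6 for the tests, pandas 2.3.3 and numpy 2.4.6 for the tables, and matplotlib 3.10.9 for the figures.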

Additional observations from a re-analysis of the deposited data

How the results depend on the processing

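Of 72 results and settings beside the reported values, 57 kept their direction and side of the threshold or moved by less than the spread between replicates. These include the setting without the pair rule, which could change nothing, because that rule alone left out 0 summits. The share of summits that were members was 10.5% with a limit of 250 bp, 6.19% with 1000 bp, 2.80% among summits above the list's median signal and 52.9% in the whole pooled list. The ratio of densities inside and between genes was 0.593 with 250 bp, 0.772 with starts of every gene type, 0.506 among summits above the median signal and, reversed, 2.14 in the whole pooled list. Against summits between genes, the odds ratio for a signal above the median was 0.718 with 1000 bp and no longer passed, that for CGATA was reversed at 1.19 with 1000 bp and 1.07 within signal classes, and that for being found in all 3 replicates was 1.62 (reversed) with the whole relaxed lists, 0.746 with the strongest 3000 and 0.824 within signal classes, of which neither passed. Against starts, that for CGATA was reversed at 1.54 within signal classes. The causes were not tested. Leaving out each replicate in turn gave member shares of 5.78 to 6.75%, density ratios of 0.607 to 0.647, 19.2 to 21.7% of members above the median signal, 47.3 to 50.2% with CGATA, and 59.4 to 60.4% of hosts bound at a start. The share found in both other replicates averaged 58.9 to 71.4% over the remaining lists. Each of those values still rests on all 3 replicates, so that range leaves no replicate out, although it is counted among the 57. The count of strings above both flanks was 6 with 1 summit per region and 7 with flanks at 2000 bp. No paired analysis was possible between groups because the samples form a single group; classes of summits were paired within the replicate lists, an alternative added after seeing the data, where 3 pairs cannot give a p below 0.25. Read depth is unknown, so what depth limits could not be set.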
